A study of Mus musculus with 564 samples.

Results

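The eosinophil-associated ribonuclease and angiogenin genes form a cluster on mouse chromosome 14. H3K27ac was followed at the candidate cis-regulatory elements (CREs) around 4 of these genes, namely Ang5, Ear1, Ear2 and Ear10. A CRE was included when its centre lay within 25 kb of an mm10 RefSeq transcription start of one of the 4 genes, which gave 12 of the 59190 CREs measured. The locus itself was chosen by its gain of H3K27ac after IL-4 in the DMSO libraries, so those values are given as a description, with no test. Each CRE is named by its gene and the distance of its centre from the start, with a minus sign for upstream.

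The cells were bone marrow-derived macrophages (BMDMs), which are macrophages grown from bone marrow, from wild type male C57/BL6 mice. Clinical kinase inhibitors (CKIs), 58 in number, or the solvent DMSO were given for 1 h beforehand. The cells were then left unstimulated (UT) or stimulated with IL-4 or LPS at 10 ng/mL for 30 min, 1 h, 2 h or 4 h, so that the UT samples carry the pre-treatment as well. There were 18 DMSO libraries, as 2 replicates in each of 9 groups, and 546 CKI libraries, of which 73 were UT, 232 had received IL-4 and 241 had received LPS. A CKI group mostly held 1 library (474 groups, against 36 groups of 2). The labels do not say whether replicates were separate cultures, and p-values then measure only the spread between these libraries.

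Eosinophil-associated ribonucleases and angiogenins belong to the ribonuclease A superfamily of small secreted proteins. The Ear genes are the mouse relatives of the human eosinophil granule ribonucleases and are also expressed by macrophages. IL-4 acts through receptor-bound JAK kinases and the transcription factor STAT6, while LPS acts through TLR4. H3K27ac is a histone mark of active enhancers and promoters. The mark at a CRE was measured as ChIP-seq reads around an open chromatin site, normalised by the authors. It is not a measure of transcription, and a CRE near a gene is not shown here to act on it.

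Of the 12 CREs, 11 lay outside any annotated gene, and Ear2 +1.7 kb overlapped an Ear2 exon. The single CRE of Ear1 lay at -10.9 kb. The 4 CREs of Ear10 lay at +5.3, -1.9, -9.6 and -15.4 kb, those of Ang5 at -3.5, -1.7 and +10.3 kb, and those of Ear2 at -24.8, -15.4, -10.9 and +1.7 kb. The CREs Ear10 -9.6 kb and Ear10 -15.4 kb were within 25 kb of the Ang5 start as well. The CRE at -24.8 kb of Ear2 was the one nearest to the limit of 25 kb from inside, and the nearest outside it lay 27 kb beyond the Ang5 start. In mm10 coordinates the set reached from chromosome 14 position 43829770 to 44105117.

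Part of this sequence is repeated. Every 51-base word of the 12 CREs, the length to which the reads were trimmed, was looked up on both strands of 21 chromosomes of GRCm38. The share of words found more than once ran from 16.3% at Ang5 +10.3 kb to 71.3% at Ear1 -10.9 kb. It was 70.3% at Ang5 -1.7 kb, 65.9% at Ang5 -3.5 kb and 43.7% at Ear10 -15.4 kb. At most CREs the repeats were largely local copies. At Ear10 -1.9 kb, however, 14.8% of words were repeated within the locus and 22.8% were found on other chromosomes. At Ear10 -9.6 kb these shares were 29.4% and 23.4%. Words of Ear2 -24.8 kb and Ear2 -15.4 kb had up to 13949 and 36677 copies. Ang5 -3.5 kb and Ang5 -1.7 kb shared 64.4% and 64.0% of their words with a CRE 2.5 kb from the Ang6 start, and Ear1 -10.9 kb shared 51.2% with Ear2 -10.9 kb. The 250 bases before the Ang5 and Ang6 starts were identical, and those of Ear1 and Ear2 aligned with 97.6% identity. Values at CREs that share words could exchange reads, and how reads with several placements were assigned was not given in the sources used here. Ang5 +10.3 kb, with the lowest share of repeated words, is therefore set beside the main results at Ang5 -1.7 kb.

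The central 300 bases of the CREs are shown for the 4 with the highest H3K27ac after IL-4, since these are the windows that hold the palindrome bound by STAT6, written TTCNNNNGAA with N for any base. It reads the same on both strands. It was present in 4 of the 12 windows and in 9.22% of all 59190 windows of that length. The sequences are from the RefSeq assembly GRCm38, plus strand, with the palindrome in capitals.
Ear10 -15.4 kb, chr14:43938833-43939132: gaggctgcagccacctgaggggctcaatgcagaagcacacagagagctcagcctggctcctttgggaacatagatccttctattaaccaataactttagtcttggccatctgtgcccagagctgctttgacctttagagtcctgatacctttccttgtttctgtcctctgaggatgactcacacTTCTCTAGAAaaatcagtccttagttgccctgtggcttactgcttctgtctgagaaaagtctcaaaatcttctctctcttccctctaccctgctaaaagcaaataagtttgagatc
Ang5 -3.5 kb, chr14:43953393-43953692: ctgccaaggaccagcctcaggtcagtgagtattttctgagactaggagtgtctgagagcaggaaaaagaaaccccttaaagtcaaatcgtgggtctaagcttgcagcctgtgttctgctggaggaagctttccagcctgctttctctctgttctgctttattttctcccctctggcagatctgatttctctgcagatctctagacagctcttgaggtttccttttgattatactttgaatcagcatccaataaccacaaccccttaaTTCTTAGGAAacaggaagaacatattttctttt
Ang5 -1.7 kb, chr14:43955267-43955566: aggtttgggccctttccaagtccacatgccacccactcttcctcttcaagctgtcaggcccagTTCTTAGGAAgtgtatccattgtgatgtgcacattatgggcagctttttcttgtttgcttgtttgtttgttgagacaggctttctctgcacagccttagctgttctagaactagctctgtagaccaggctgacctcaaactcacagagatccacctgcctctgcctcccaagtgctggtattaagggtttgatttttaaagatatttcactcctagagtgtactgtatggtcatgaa
Ang5 +10.3 kb, chr14:43967235-43967534: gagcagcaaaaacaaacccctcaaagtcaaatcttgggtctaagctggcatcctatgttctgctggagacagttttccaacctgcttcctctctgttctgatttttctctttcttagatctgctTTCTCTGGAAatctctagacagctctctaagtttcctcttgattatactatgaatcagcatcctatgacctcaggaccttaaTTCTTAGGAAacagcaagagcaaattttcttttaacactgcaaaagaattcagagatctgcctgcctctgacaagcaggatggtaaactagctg

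Counted over the whole CREs, the palindrome stood 3 times in Ear10 -15.4 kb and Ang5 +10.3 kb, 2 times in Ang5 -1.7 kb and Ear2 -15.4 kb, 1 time in Ang5 -3.5 kb and Ear10 -9.6 kb, and in none of the other 6. Within its window Ang5 +10.3 kb held 2 palindromes and the other windows held 1 each. The exact letters TTCTTAGGAA stood in 3 of the 4 windows, all near Ang5, and in 0.171% of all windows. The windows of Ang5 -3.5 kb and Ang5 +10.3 kb aligned over 245 positions with 84.1% identity, the highest identity among the Ang5 windows. The AP-1 letters TGANTCA, searched on both strands, were in 5 of the 12 windows and in 20.2% of all windows. The PU.1 letters GAGGAAGT were in 1 of the 12, Ear2 +1.7 kb, and in 9.11% of all windows. The shorter STAT palindrome TTCNNNGAA was in 0 of the 12 windows and in 9.40% of all windows. A match of letters is a description and does not show that a factor was bound. The CREs that lie between the chosen ones, described below, also rose after IL-4, and none of them had TTCNNNNGAA in its central window.

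The windows of Ear1 -10.9 kb and Ear2 -10.9 kb, which hold neither STAT palindrome, aligned in the opposite orientation over 290 positions with 98.6% identity. They are shown by the window of Ear2 -10.9 kb, the strongest of the 12 CREs in UT cells.
Ear2 -10.9 kb, chr14:44091600-44091899: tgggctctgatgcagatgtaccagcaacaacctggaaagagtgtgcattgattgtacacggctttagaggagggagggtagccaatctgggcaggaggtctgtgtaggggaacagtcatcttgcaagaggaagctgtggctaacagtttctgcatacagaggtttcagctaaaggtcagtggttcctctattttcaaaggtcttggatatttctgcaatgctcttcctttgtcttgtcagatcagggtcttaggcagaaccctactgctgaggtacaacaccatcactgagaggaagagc

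In DMSO-treated cells the 3 Ang5 CREs and the CREs Ear10 -9.6 kb and Ear10 -15.4 kb went from low counts to strong H3K27ac within 4 h of IL-4. At Ang5 -1.7 kb the normalised read count was 58 and 24 in the 2 UT libraries, 187 and 209 at 30 min, 325 and 373 at 1 h, 497 and 538 at 2 h and 662 and 574 at 4 h of IL-4. At Ang5 +10.3 kb it was 5 and 7 in UT, 147 and 146 at 30 min, 232 and 300 at 1 h, 483 and 491 at 2 h and 740 and 714 at 4 h. Both replicates were above both UT libraries at every IL-4 time at these CREs, and each IL-4 time was above the one before it.

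Ang5 -3.5 kb had counts of 41 and 9 in UT and of 602 and 499 at 4 h of IL-4. Ear10 -15.4 kb had 7 and 2 in UT and 681 and 578 at 4 h. Ear10 -9.6 kb had 6 and 5 in UT and 283 and 315 at 4 h. On the log2(value + 5) scale, on which low counts are pulled together, the 4 h difference from UT was 6.11 ± 0.17 (SE from limma) at Ear10 -15.4 kb, 6.06 ± 0.15 at Ang5 +10.3 kb, 4.86 ± 0.19 at Ear10 -9.6 kb, 4.45 ± 0.24 at Ang5 -3.5 kb and 3.86 ± 0.17 at Ang5 -1.7 kb. The 2 UT libraries of Ang5 -3.5 kb differed from each other, and its difference was 5.30 without UT replicate 1 and 3.59 without UT replicate 2.

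The other CREs of Ear10 and those of Ear1 and Ear2 moved less. At Ear10 -1.9 kb, the CRE nearest to the Ear10 start, the count was 61 and 50 in UT, 106 and 63 at 30 min, 148 and 129 at 1 h, 180 and 187 at 2 h and 256 and 278 at 4 h of IL-4. At Ear2 -10.9 kb it was 196 and 176 in UT and 349 and 389 at 4 h. At Ear2 +1.7 kb, nearest to the Ear2 start, it was 32 and 36 in UT, 38 and 45 at 30 min, 33 and 32 at 1 h, 51 and 45 at 2 h and 61 and 68 at 4 h. At Ear1 -10.9 kb it was 42 and 18 in UT, 44 and 24 at 30 min, 34 and 36 at 1 h, 46 and 49 at 2 h and 12 and 24 at 4 h, and the groups overlapped. As a background to the way the locus was chosen, 13.6% of the 47018 CREs tested rose across the IL-4 time course. The rule was an adjusted p under 0.01 (limma F test) and a log2 difference over 1. The 12 are not counted against it, since these libraries chose the locus.

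**Figure D1:**
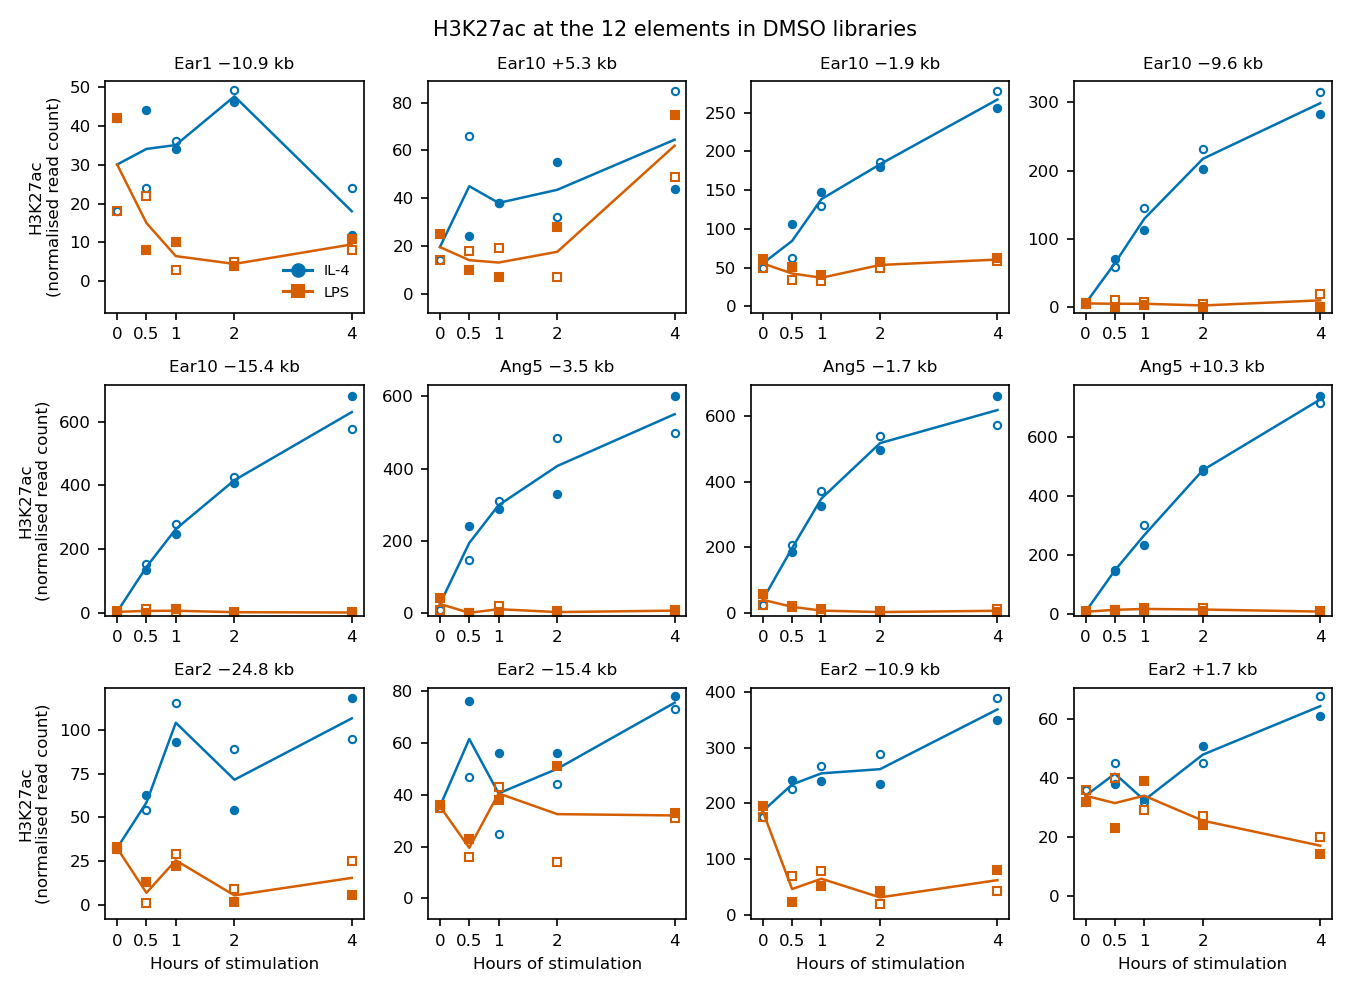
H3K27ac (normalised read count) at the 12 CREs against hours of IL-4 (blue circles) or LPS (orange squares) in the DMSO libraries. Filled symbols are replicate 1, open symbols replicate 2 and lines the means of 2, with the same UT libraries at 0 h for both stimuli. The y axes differ between panels. The IL-4 values of Ang5 +10.3 kb climb from 5 and 7 to 740 and 714, while the Ear2 and Ear1 panels span a much smaller range.

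After LPS the Ang5 CREs stayed low. At Ang5 -1.7 kb the DMSO count was 18 and 21 at 30 min of LPS, 12 and 4 at 1 h, 0 and 7 at 2 h and 3 and 12 at 4 h, against 58 and 24 in UT. The count of Ang5 +10.3 kb was 13 and 12 at 30 min, 12 and 19 at 1 h, 10 and 17 at 2 h and 3 and 10 at 4 h, against 5 and 7 in UT. At Ang5 -3.5 kb it was 0 and 1, 2 and 19, 0 and 5, and 5 and 8 at the same times, and at Ear10 -15.4 kb all 8 LPS libraries lay between 0 and 15. At Ear2 -10.9 kb it was 23 and 69 at 30 min, 51 and 78 at 1 h, 43 and 19 at 2 h and 81 and 43 at 4 h, all below both UT libraries (196 and 176).

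In the limma fit of the DMSO LPS time course 9 of the 12 CREs had a mean count of at least 10 and were tested. Ear2 -10.9 kb (adjusted p = 6.39e-07) and Ear2 -24.8 kb (adjusted p = 0.000609) met the threshold in the lower direction, as did 24.5% of the 50697 CREs tested. With that share over all CREs, no trait of the locus is read from these falls. Ang5 -1.7 kb and Ear1 -10.9 kb met it as well, with means of 9.62 and 8.88 over the 8 LPS libraries. They entered the test only through their UT libraries, with means of 41 and 30. No fall is therefore read from their test, and they are not counted. The adjusted p of Ear1 -10.9 kb was in any case above the threshold, at 0.0108, without LPS 2 h replicate 1. Ear10 +5.3 kb rose, from 25 and 14 in UT to 75 and 49 at 4 h (adjusted p = 0.000407), and lost the call at adjusted p = 0.0561 without LPS 4 h replicate 1. The UT libraries are those of the IL-4 course as well. Ear10 -9.6 kb, Ear10 -15.4 kb and Ang5 -3.5 kb were not tested.

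The CKI libraries, which are other libraries than those that drew attention to the locus, gave the same measure again. Over 73 UT libraries the count at Ang5 -1.7 kb was 3 at the lowest, 27 at the median and 88 at the highest. Over 55 libraries at 4 h of IL-4 it was 104, 439 and 669, so that every IL-4 library was above every UT library. Over 57 libraries at 4 h of LPS it was 0, 14 and 111. For Ang5 +10.3 kb the lowest, median and highest were 0, 19 and 85 in UT, 111, 403 and 638 at 4 h of IL-4 and 0, 19 and 114 at 4 h of LPS. Here too the IL-4 and UT ranges did not overlap. The share of all CREs with ranges that do not overlap was not counted.

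At Ang5 -3.5 kb the counts were 0, 20 and 87 in UT and 59, 408 and 778 at 4 h of IL-4, with 54 of the 55 IL-4 libraries above the highest UT library. At Ear10 -15.4 kb they were 1, 17 and 99 in UT and 67, 378 and 613 at 4 h of IL-4, again with 54 of 55 above. No share over all CREs was taken for these counts of libraries. Within each CKI, IL-4 at 4 h was above UT in 55 of 55 CKIs at Ear10 -15.4 kb and at all 3 Ang5 CREs, a pattern held by 1.69% of all 59167 CREs. It was above LPS at 4 h in 52 of 52 CKIs at these 4 CREs and at Ear2 -10.9 kb, a pattern held by 4.67%.

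**Figure D2:**
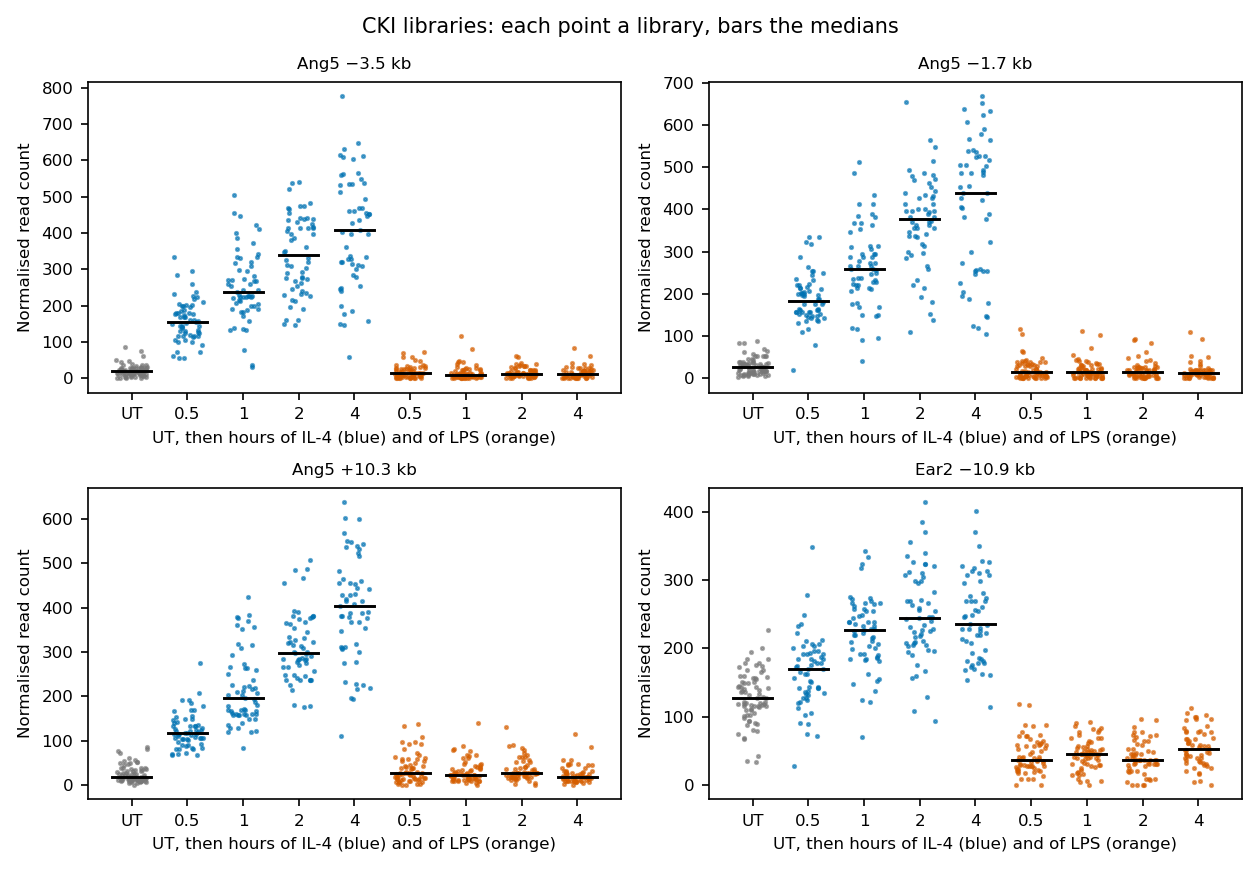
H3K27ac (normalised read count) in the CKI libraries at the 3 Ang5 CREs and at Ear2 -10.9 kb, in UT cells and after 0.5, 1, 2 and 4 h of IL-4 (blue) or LPS (orange). Each point is 1 library, with horizontal jitter, and black bars are medians. The medians of Ang5 -1.7 kb go from 27 in UT to 439 at 4 h of IL-4 and 14 at 4 h of LPS, and those of Ear2 -10.9 kb from 128 to 236 and 52.

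In the limma fit over the 546 CKI libraries, with condition and compound as terms, 7 of the 12 CREs rose at 4 h of IL-4 against UT (adjusted p under 0.01 and log2 difference over 1), against 3.3% of the 59167 CREs tested. The difference was 4.05 ± 0.15 (SE, adjusted p = 4.03e-102) at Ang5 -3.5 kb, the highest of all 59167 CREs. The locus was chosen by its gain after the same stimulus in the DMSO libraries, so a high rank here was likely beforehand. It was 3.93 ± 0.15 at Ear10 -15.4 kb, 3.86 ± 0.13 at Ang5 +10.3 kb and 3.66 ± 0.16 at Ang5 -1.7 kb. The neighbours in this order differ by little more than 1 SE. Ear10 -9.6 kb followed with 2.76 ± 0.15, Ear10 -1.9 kb with 1.58 ± 0.10 and Ear2 -24.8 kb with 1.06 ± 0.16.

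The remaining 5 CREs stayed under the size needed for a call. They were Ear2 -10.9 kb at 0.92 ± 0.12, Ear10 +5.3 kb at 0.66 ± 0.12, Ear2 -15.4 kb at 0.65 ± 0.13, Ear2 +1.7 kb at 0.62 ± 0.11 and Ear1 -10.9 kb at 0.32 ± 0.17. The median of the 12 was 1.32 and that of all CREs 0.05. The library order falls into 6 runs (blocks of 8 to 10 CKIs that stand together in the deposited table). Within them the difference of Ang5 +10.3 kb lay between 2.86 and 4.76. That of Ang5 -1.7 kb lay between 2.74 and 4.97, and both were higher in 6 of 6 runs. A share over all CREs was not taken for this count of runs. Ear2 -24.8 kb ran from 0.03 to 1.93 over the runs, and its call was lost with a pseudocount of 20 (0.81) and with quantile normalization (0.85).

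The runs also differed in how far strong and weak CREs were apart. That contrast, the median count of the strongest 10% of CREs over that of the weakest 10%, had a median of 11.2 in run 1 and 13.1 in run 6, where the IL-4 difference of Ang5 -1.7 kb was 2.74 ± 0.40 and 2.92 ± 0.33. In runs 2 and 3 the contrast was 17.9 and 18.6 and the difference 3.96 ± 0.41 and 3.57 ± 0.32. In runs 5 and 4 the contrast was 30.8 and 35.1 and the difference 3.99 ± 0.27 and 4.97 ± 0.33. The 2 runs of lowest contrast had the smallest differences and run 4 the largest, while runs 2 and 5 had like differences at unlike contrast. The contrast was 53.0 to 134 in the DMSO libraries, where UT counts at Ang5 +10.3 kb (5 and 7) were below the CKI median of 19. The part of contrast in the sizes was not tested. Since each CKI is in 1 run, differences between runs and between their CKIs cannot be told apart.

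The gain was early. At 30 min of IL-4, 5 of the 12 CREs had already risen in the CKI libraries, against 3.73% of all CREs tested, with differences from UT of 2.78 ± 0.14 at Ang5 -3.5 kb, 2.65 ± 0.16 at Ang5 -1.7 kb, 2.32 ± 0.14 at Ear10 -15.4 kb, 2.21 ± 0.13 at Ang5 +10.3 kb and 1.32 ± 0.15 at Ear10 -9.6 kb. Further steps were smaller, and for Ang5 +10.3 kb the step was 0.77 ± 0.14 from 30 min to 1 h (adjusted p = 5.25e-07), 0.56 ± 0.14 from 1 h to 2 h (adjusted p = 0.000510) and 0.31 ± 0.14 from 2 h to 4 h (adjusted p = 0.121). At Ang5 -1.7 kb the last step was 0.06 ± 0.17 (adjusted p = 0.885), so that 2 h and 4 h did not differ beyond their error.

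**Figure D3:**
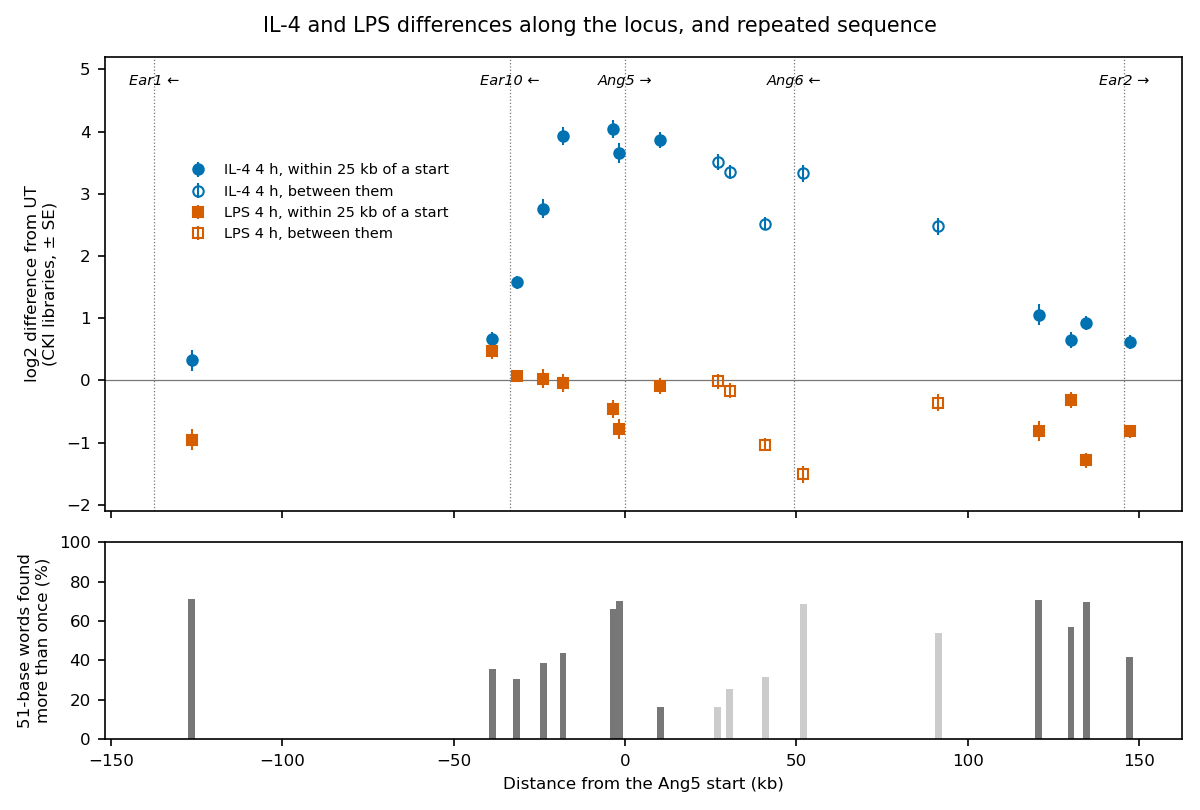
Upper panel, log2 difference from UT (± SE, 546 CKI libraries) at 4 h of IL-4 (blue circles) and 4 h of LPS (orange squares) against distance from the Ang5 start in kb. Filled symbols are the 12 CREs within 25 kb of a start of Ang5, Ear1, Ear2 or Ear10, open symbols 5 further CREs between them, and dotted lines gene starts with arrows for direction. Lower panel, share of 51-base words found more than once in the genome (%). IL-4 differences are between 3.66 and 4.05 at the Ang5 CREs and 0.32 at the Ear1 CRE, and Ang5 +10.3 kb combines 3.86 with 16.3% repeated words.

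The same gain ran on across Ang6, an angiogenin gene that is not among the 4. Between the chosen CREs lay 5 more, from 27 to 91.4 kb beyond the Ang5 start, and all 5 rose at 4 h of IL-4 in the CKI libraries, by 3.51 ± 0.12, 3.35 ± 0.12, 2.52 ± 0.11, 3.33 ± 0.14 and 2.48 ± 0.14 in order of position. The first of them had 16.4% repeated words and no 51-base word in common with another place in the locus. The fourth, 2.5 kb from the Ang6 start, is the one that shares words with Ang5 -3.5 kb and Ang5 -1.7 kb. It fell at 4 h of LPS by 1.51 on the log2 scale (SE 0.14). None of these 5 CREs held the palindrome TTCNNNNGAA in its central window. Over the whole CREs it stood 1, 0, 3, 3 and 1 times, in the same order. The second thus rose by 3.35 ± 0.12 without a palindrome. Ear2 -15.4 kb, with 2 in the whole CRE, rose by 0.65 ± 0.13. Gain and palindrome therefore did not run together at every CRE of the locus.

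In the CKI libraries 1 of the 12 CREs fell at 4 h of LPS, against 8.37% of the CREs tested. It was Ear2 -10.9 kb, with a difference of -1.29 ± 0.12 (adjusted p = 4.57e-25). Its count was 34, 128 and 227 (lowest, median and highest) in UT and 0, 52 and 113 at 4 h of LPS, and it was below UT in 52 of 55 CKIs. For that count of CKIs no share over all CREs was taken. The difference was -0.95 ± 0.17 at Ear1 -10.9 kb, -0.82 ± 0.11 at Ear2 +1.7 kb, -0.81 ± 0.16 at Ear2 -24.8 kb and -0.78 ± 0.16 at Ang5 -1.7 kb, all under the size needed for a call. It was -0.09 ± 0.13 at Ang5 +10.3 kb (adjusted p = 0.551). The number of calls was 4 with a pseudocount of 1.

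With IL-4 set directly against LPS at 4 h, 10 of the 12 CREs were higher after IL-4, against 9.02% of all CREs tested. The difference was 4.51 ± 0.15 at Ang5 -3.5 kb, 4.44 ± 0.17 at Ang5 -1.7 kb, 3.98 ± 0.15 at Ear10 -15.4 kb and 3.95 ± 0.14 at Ang5 +10.3 kb. Ear2 -10.9 kb differed by 2.21 ± 0.12 and Ear1 -10.9 kb by 1.27 ± 0.18. Ear10 +5.3 kb differed by 0.19 ± 0.13 (adjusted p = 0.178) and Ear2 -15.4 kb by 0.96 ± 0.13. Over the 6 runs the number of CREs called lay between 8 and 11.

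The effect of each CKI on the locus was asked of the 232 CKI libraries that had received IL-4, by comparing each CKI over the 4 times with the mean of the 58 CKIs. Over 696 pairs of CRE and CKI, 29 (4.17%) were lower and 9 (1.29%) higher at an adjusted p under 0.05 and a log2 difference over 0.5. Over all CREs 0.953% of pairs were lower and 2.14% higher. Of the 58 CKIs, X396, an ALK inhibitor, was lower at 7 of the 12 CREs and Omipalisib, a PI3K and mTOR inhibitor, at 6. Over all CREs 2.12% were lower with X396 and 5.99% with Omipalisib. Both are in run 1, the run with the lowest contrast. There 1 read was worth a count of 7.33 at the median, against 1.58 in run 4. Low counts of single libraries in run 1 thus rest on few reads. Set against the mean of its own run, 10 pairs were lower and 0 higher, where the same reference gave 0.368% and 0.946% over all CREs.

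At Ang5 -1.7 kb, the CRE with the highest mean over the CKI libraries at 4 h of IL-4, the 3 lowest CKIs were all of run 1. Vatalanib, a VEGF receptor inhibitor, had counts of 21, 150, 215 and 254 at 30 min, 1 h, 2 h and 4 h of IL-4 and a difference of -1.18 ± 0.23 (adjusted p = 0.000190). Omipalisib had 164, 41, 319 and 194 and a difference of -0.90 ± 0.23 (adjusted p = 0.00256). AZD8186, a PI3K inhibitor, had 254, 95, 152 and 179 and a difference of -0.76 ± 0.23 (adjusted p = 0.0317). None of these 3 was called lower at this CRE against the mean of its run. At the less repeated Ang5 +10.3 kb their differences were smaller and none passed the threshold, with -0.20 ± 0.17 for Vatalanib (adjusted p = 0.496), -0.42 ± 0.17 for Omipalisib (adjusted p = 0.0611) and -0.06 ± 0.17 for AZD8186 (adjusted p = 0.857). The only CKI called lower at Ang5 +10.3 kb was X396, at -0.64 ± 0.17 (adjusted p = 0.00506).

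The highest were TG100115, a PI3K inhibitor, with counts of 244, 511, 563 and 564 and a difference of 0.69 ± 0.23 (adjusted p = 0.130), Refametinib with 0.65 ± 0.23 (adjusted p = 0.157) and Selumetinib with 0.53 ± 0.23 (adjusted p = 0.199), both MEK inhibitors of run 4. These 3 did not pass the threshold at Ang5 -1.7 kb. At Ang5 +10.3 kb TG100115 was higher, at 0.85 ± 0.17 (adjusted p = 0.00316), and Refametinib and Selumetinib were at 0.25 ± 0.17 each. With Vatalanib, the lowest at Ang5 -1.7 kb, the count at that CRE was below its UT value of 53 at 30 min of IL-4 (21) and above it from 1 h on.

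The 10 pairs that were lower against their own run named 7 CKIs. PH797804, a p38 inhibitor of run 4, was lower at 3 CREs, by 0.72 at Ang5 -1.7 kb (adjusted p = 0.00672), 0.69 at Ear10 -15.4 kb (adjusted p = 0.00211) and 0.59 at Ang5 -3.5 kb (adjusted p = 0.0205) on the log2 scale. Its counts at Ang5 -1.7 kb were 175, 222, 181 and 260 over the 4 IL-4 times, against 12 in UT. None of the 10 pairs was at Ang5 +10.3 kb. Filgotinib, a JAK inhibitor, was lower at Ang5 -3.5 kb, with 63, 37, 148 and 146 and a difference of -0.88 ± 0.22 (adjusted p = 0.00937). BGT226, a PI3K and mTOR inhibitor, was lower at Ear10 -15.4 kb (-0.53 ± 0.19, adjusted p = 0.0407) and Ear2 +1.7 kb, X396 at Ear10 -9.6 kb and AMG208 at Ear2 +1.7 kb. The CRE Ear2 -24.8 kb was lower with Lenvatinib and Omipalisib, where 2 IL-4 libraries of each were at 0.

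The 6 JAK inhibitors were compared with the other CKIs because JAK kinases carry the IL-4 signal to STAT6. With Tofacitinib the count at Ang5 -1.7 kb was 17 in UT and 158, 267, 412 and 523 over the 4 IL-4 times. With Ruxolitinib it was 36 and 31 in UT and 188, 238, 364 and 439. With Pacritinib it was 11 in UT and 215, 368, 439 and 652, and with Momelotinib 62 and 27 in UT and 156, 288, 515 and 123. With Filgotinib it was 23 and 39 in UT and 136, 233, 193 and 225. With BMS911543 it was 18 and 6 in UT and 224, 148, 285 and 148. The count was thus above UT at every IL-4 time with all 6 compounds, a pattern whose share over all CREs was not taken. The same held at Ang5 +10.3 kb, where the counts at 4 h of IL-4 were 456 with Tofacitinib, 354 with Ruxolitinib, 549 with Pacritinib, 390 with Momelotinib, 310 with Filgotinib and 232 with BMS911543.

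As a family and with run as a term, 0 of the 12 CREs were lower with JAK inhibitors at an adjusted p under 0.05 in limma, against 0.00507% of all CREs (3 of 59156). At an unadjusted p under 0.05 there was 1, Ang5 -3.5 kb, at -0.25 ± 0.10 (limma, adjusted p = 0.891). Over the 6 compounds, 5 were below the other CKIs of their run there, a count for which no share over all CREs was taken. The difference was -0.03 ± 0.10 at Ang5 -1.7 kb, -0.04 ± 0.08 at Ang5 +10.3 kb and -0.05 ± 0.10 at Ear10 -15.4 kb. The IL-4 differences at these CREs were 3.66 or more on the same scale. A p that misses the threshold does not show that these inhibitors act like the other CKIs, and their doses were not analysed here.

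The 7 PI3K and mTOR inhibitors and the 5 MEK and ERK inhibitors gave 0 of the 12 CREs lower at an adjusted p under 0.05, against 0.519% and 0% of all CREs, and 0 at an unadjusted p under 0.05 in both. The differences at Ang5 +10.3 kb were 0.06 ± 0.08 and 0.07 ± 0.09. The compounds of the PI3K and mTOR family went different ways. BGT226 and Omipalisib were each below the other CKIs of their run at 11 of the 12 CREs and TG100115 at 0 of 12, with median differences of -0.32, -0.20 and 0.44. PF04691502 was below at 10, Apitolisib at 7, AZD8186 at 3 and AZD2014 at 2 of the 12. No share over all CREs was taken for these counts. Against the mean of all CKIs, the medians of BGT226, Omipalisib and TG100115 were -0.32, -0.51 and 0.58 over the 12 CREs. Over all CREs they were -0.20, 0.17 and 0.05. With BGT226 the typical CRE was thus also below the mean of all CKIs. Whether its count against its run is particular to this locus was not tested.

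**Figure D4:**
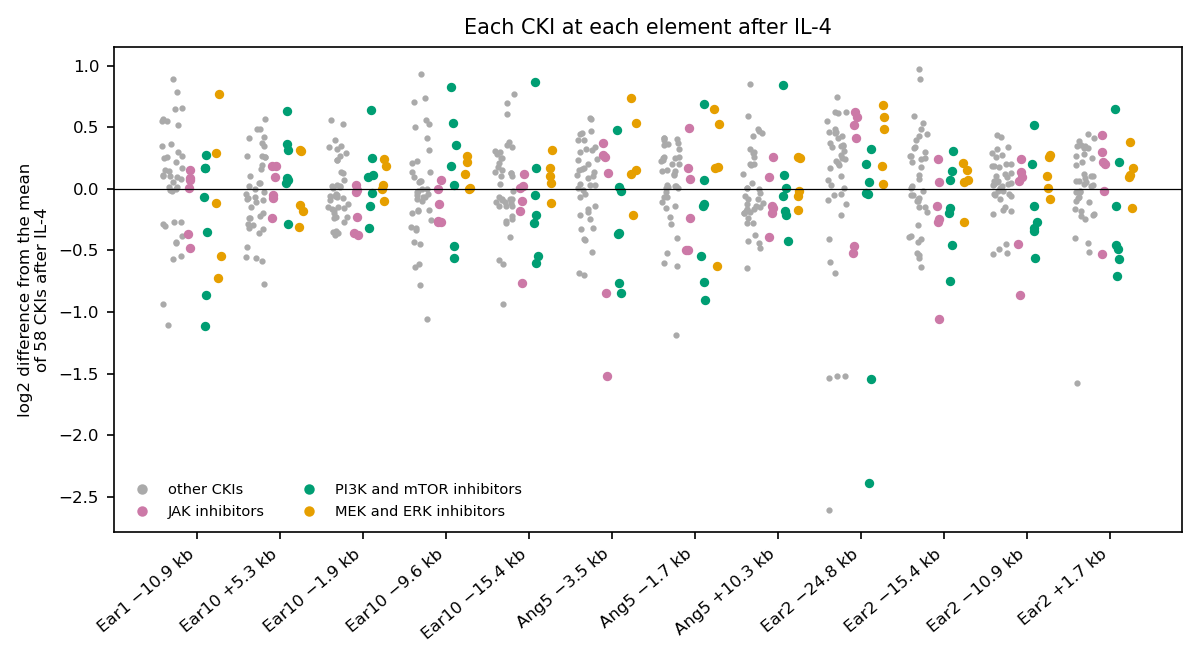
Log2 difference of each CKI from the mean of the 58 CKIs after IL-4 (4 times together) at each of the 12 CREs. Points are CKIs, coloured for JAK (pink), PI3K and mTOR (green) and MEK and ERK inhibitors (orange), with other CKIs in grey and horizontal jitter. The lowest point at Ang5 -3.5 kb is Filgotinib (-1.52), and the widest scatter is at Ear2 -24.8 kb (SD 0.73 over CKIs).

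Other ribonuclease A genes with CREs within 25 kb were counted in the same way. Of 19 genes, 15 had such a CRE, and 12 of their 29 CREs rose and 0 fell at 4 h of IL-4 in the CKI libraries, against 3.3% and 2.22% of all CREs, with a median difference of 0.35 against 0.05 over all CREs. The 12 CREs above are left out of that count, and those within 25 kb of the Ang6 start are in it. The CRE nearest to the starts of Ear14 and Ang2 rose by 3.41 ± 0.08, from a median count of 46 to 571, and that of Rnase2a, a further eosinophil-type ribonuclease gene, by 2.53 ± 0.10. The CRE of Ang and Rnase4, which share it and code for angiogenin and a ribonuclease, had 0.31 ± 0.04 at 4 h of IL-4 and fell by 1.33 on the log2 scale with LPS.

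Among 25 genes known to respond to IL-4 in macrophages, 41 of 119 CREs rose and 6 fell at 4 h of IL-4, against the same 3.3% and 2.22%, with a median of 0.59. The CRE nearest to the start rose by 3.02 ± 0.10 at Pdcd1lg2, by 2.50 ± 0.07 at Flt1, by 1.77 ± 0.06 at Cish, by 1.75 ± 0.08 at Mgl2, by 1.72 ± 0.16 at Chil4 and by 1.61 ± 0.07 at Arg1. Pdcd1lg2 codes for a ligand of PD-1, and Arg1 for the arginase that marks IL-4-treated macrophages.

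The CREs elsewhere in the genome whose pattern over the 546 CKI libraries was most like that of Ang5 -1.7 kb were nearest to Irf4 (Pearson r = 0.918 on log2 values centred for each compound), Msx3 (r = 0.909), Ints9 (r = 0.908), Ap2m1 (r = 0.906) and St8sia1 (r = 0.905). They rose at 4 h of IL-4 by 2.80 ± 0.09, 2.82 ± 0.09, 2.38 ± 0.09, 1.72 ± 0.05 and 3.49 ± 0.09. Inside the locus r with Ang5 -1.7 kb was 0.885 at Ang5 +10.3 kb, 0.876 at Ang5 -3.5 kb and 0.857 at Ear10 -15.4 kb, and 0.476 at Ear1 -10.9 kb and 0.355 at Ear10 +5.3 kb. The libraries share stimulation, time and depth, so the r values describe these libraries only.

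Markers of macrophages and of other cells were looked up as CREs whose edge lay within 1 kb of a start. All 8 macrophage markers, among them Spi1 and Csf1r, had such a CRE, with a summed count of 8230 to 8293 in the UT DMSO libraries, 7421 to 8312 at 4 h of IL-4 and 6650 to 7402 at 4 h of LPS. Of 7 eosinophil markers 2 did, Siglecf and Ccr3, with a sum of 885 to 979 in UT, 354 to 377 at 4 h of IL-4 and 594 to 744 at 4 h of LPS, while Epx and Prg2, which define eosinophils, had none. The neutrophil sum (3 of 6 markers) was 90 to 115, 106 to 136 and 182 to 243, and that of the B cell markers (1 of 5) 53 to 87, 24 to 25 and 43 to 94. None of the 5 mast cell or the 5 T and NK cell markers had one. The eosinophil sum was lower at 4 h of IL-4, when the ribonuclease CREs were higher, and its part in the result was not tested. This reading of the distance was taken after values had been seen. With the centre of the CRE within 1 kb, 5 of 8 macrophage, 2 of 6 neutrophil and 0 of 7 eosinophil markers had a CRE.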

How the data were processed

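H3K27ac ChIP-seq reads were trimmed to 51 bases and mapped to mm10 by the authors with ShortStack (Bowtie and SAMtools are named in the submitters' processing notes, without versions). The authors counted reads around open chromatin summits and scaled the libraries on invariant peaks. The deposited values are normalised read counts rounded to whole numbers, which makes the unit a score, and no count model was applied. All 564 columns matched 1 sample title each.

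The 12 CREs, the 4 genes and all lists were chosen with earlier results of these data known. Values were analysed as log2(value + 5) with limma 3.58.1 (R 4.3.3, trended variances), for CREs with a mean of at least 10 over the libraries of the fit, with Benjamini-Hochberg adjustment over all CREs tested. The DMSO time courses used 10 libraries each and an F test. CKI libraries were fitted with condition and compound, IL-4 CKI libraries with time and compound, and families over 58 compound coefficients with run. Full values are given for the CRE nearest to each start and for the 3 highest at 4 h of IL-4 in the CKI libraries, single CKIs for the 3 highest and 3 lowest at the strongest CRE and for the JAK inhibitors, and the 6 genes of each list whose nearest CRE had the largest IL-4 difference. Ear10 -15.4 kb and the CKIs lower against their run were added after their values were seen. Marker CREs were first taken by their centre within 1 kb of a start. After this had missed Csf1r, Adgre1 and Cd68 the edge was used, and both outcomes are given. A gene of the ribonuclease list is not reported here and was left out of its counts. Scripts were tested on simulated data.

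From the spacing of low values, 1 read was worth 1.16 to 2.54 in DMSO libraries and 3.79 at the median of CKI libraries, so a CKI count of 20 rests on few reads. Reads over all CREs came to between 2346043 and 5544466 in 13 DMSO libraries and to a median of 1789829 in 510 CKI libraries. Sequences and starts are from RefSeq on GRCm38.p6. Alternatives were pseudocounts of 1 and 20, no filter, quantile normalization, equal totals, a replicate block, other references, runs, and left-out libraries or compounds.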

Additional observations from a re-analysis of the deposited data

Results flagged for a closer look

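In 2 combinations of CRE and family there was a compound whose distance to its nearest neighbour was large against the range of its family (Dixon's criterion at 95%). At Ear10 -15.4 kb Filgotinib was at -0.762 among the 6 JAK inhibitors, with the next lowest at -0.182. At Ang5 +10.3 kb TG100115 was at 0.845 among the 7 PI3K and mTOR inhibitors, with the next highest at 0.11. Both values are log2 differences from the mean of the 58 CKIs after IL-4. In all 36 combinations were examined, and chance marks about 1 in 20.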

How the results depend on the processing

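The number of the 12 CREs called was within 1.5 times its reported value for IL-4 against UT in the CKI libraries (6 to 9 over the alternatives and the 6 runs) and for IL-4 against LPS (8 to 11). The DMSO IL-4 course is left out here, since its libraries chose the locus. Counts from DMSO fits without a replicate are left out too, as a lone library then stands for its group. For LPS against UT in the CKI libraries the number called was 1. It became 4 with a pseudocount of 1, 2 with quantile normalization, 3 within runs 2, 3 and 6 and 0 within run 4. Of the 696 CRE and CKI pairs after IL-4, 29 were lower and 9 higher, against 0.953% and 2.14% of pairs over all CREs. With DMSO as the reference 112 were lower and 37 higher, against 3.31% and 30.3% over all CREs. The DMSO IL-4 values chose the locus, so lower values of the CKIs against them were likely beforehand. No effect of the CKIs is read from that count. With the run mean 10 pairs were lower and 0 higher, against 0.368% and 0.946%. Without the libraries whose names end in b 14 were higher, against 2.71%. The cause was not tested. All family counts stayed at 0, also without each compound.

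Replicate numbers did not pair the DMSO libraries: over 36 pairs of groups the correlation of replicate differences lay between -0.09 and 0.07. With the replicate as a block, the number of CREs called lower for LPS did not change. No direction reversed at a called CRE. The DMSO IL-4 difference of Ear10 -15.4 kb was 4.73 with a pseudocount of 20.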
